A study of Homo sapiens with 10 samples.

Results

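The 44 genes described here act in mitosis or in the G2 phase that leads into it. They were chosen by name, as a list of known mitotic kinases, kinesins, kinetochore and checkpoint proteins and their partners. This list and the gene lists set beside it were drawn up with earlier results of these data known. Their shares, set against those of all genes, therefore describe the lists and are not an independent test. All 44 symbols were found among the 25593 genes listed in every library, and all 44 passed the filter on low expression that left 14813 genes for testing. The libraries came from lines made from U2OS, a human osteosarcoma cell line, by transfection with a CRISPR/Cas9 construct, selection and clone identification. One is a control line labelled p53 WT and the other is labelled p53 KO, with 1 line of each kind. Each was transfected for 96 h with a control siRNA (si-Ctr) or an siRNA against SET (si-SET), a protein that holds histones and blocks protein phosphatase 2A. WT-labelled cells gave 3 libraries with control siRNA and 3 with SET siRNA, and KO-labelled cells gave 2 and 2, which makes 4 groups. The series' description names SET as the CRISPR target while describing a p53 knockout line, so the groups were taken from the sample labels. The replicates are labelled biological, but how their cultures were kept apart is not said, and p-values therefore measure only the spread between these libraries.

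Entry into mitosis is driven by CDK1 bound to cyclin B, which the CDC25 phosphatases activate and which works with the Polo-like and Aurora kinases. Kinesins and their partners then build the spindle, kinetochores attach chromosomes to it, and the spindle checkpoint holds back CDC20 and the anaphase-promoting complex until every chromosome is attached. Transcripts of these genes are known to rise together late in the cell cycle, through promoter elements bound by the MuvB core complex with B-MYB and FOXM1, and to be repressed when p53 induces CDKN1A (p21) and the DREAM complex forms on the same elements.

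Expression was measured as FPKM, fragments scaled to transcript length and library size, which allows levels to be compared between genes. SET stood at 121, 125 and 126 FPKM in the WT control libraries and at 12.3, 13.3 and 12 with SET siRNA, and at 158 and 169.7 against 14.9 and 14.9 in the KO-labelled line, so the knockdown was seen in every library that received the siRNA. CDKN1A, a p53 target, was at 163, 169.8 and 153 FPKM in the WT control libraries and at 6.84 and 6.51 in the KO control libraries. Markers of mesenchymal cells and osteosarcoma were present, with 7 of 8 at a group mean of 1 FPKM or more in each of the 4 groups, and none of the 5 blood cell and 4 endothelial markers reached that level in any group. The summed FPKM of the mesenchymal markers was 2127 to 2204 in the WT control libraries, 1442 to 1595 with SET siRNA, 2152 to 2292 in the KO control libraries and 1656 to 1820 in the KO SET siRNA libraries, and 6 of the 7 tested fell with SET siRNA in both lines, FN1 being the exception. Of 6 epithelial markers, 4 or 5 reached a group mean of 1 FPKM, and their summed FPKM was 665 to 699.9 in the WT control libraries, 500.1 to 512 with SET siRNA, 288 to 327 in the KO control libraries and 277 to 281 in the KO SET siRNA libraries. KRT8 and KRT18 make up nearly all of that sum, and the single markers went different ways with SET siRNA: KRT8 fell in both lines, KRT18 fell in WT-labelled cells and CLDN4 in KO-labelled cells, while EPCAM rose in both lines (2.24-fold in WT-labelled and 2.39-fold in KO-labelled cells) and CDH1 rose in WT-labelled cells. EPCAM and CDH1 were near the filter of 1 FPKM, with WT control means of 1.79 and 0.950 FPKM, against 389 and 283 FPKM for KRT8 and KRT18. The authors' confidence interval had a median half-width of 25.1% of FPKM for EPCAM and 24.9% for CDH1. The part of either marker list in the results was not tested. Between 13804 and 14153 genes were at 1 FPKM or more per library, and the total number of reads was not given.

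The members were well above the typical gene. Their group means ran from 12.7 ± 0.236 FPKM (SD, n = 3) for CDC25C to 219 ± 3.10 FPKM for UBE2C in the WT control group, with a median of 59.1 FPKM against 11.3 FPKM over all genes tested. CDC25C, a phosphatase that activates CDK1, was the lowest and UBE2C, the ubiquitin-conjugating enzyme of the anaphase-promoting complex, the highest in each of the 4 groups. The authors' confidence interval for a member's FPKM had a half-width, as the median over libraries, of 1.67% of its FPKM for TOP2A, the narrowest, and of 10.5% for CDC25C, the widest.

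Summed over the 44 genes, the members took 0.594%, 0.630% and 0.607% of all FPKM in the WT control libraries 1 to 3 and 0.431%, 0.439% and 0.423% in the WT SET siRNA libraries. In the KO-labelled line the share was 0.706% and 0.782% with control siRNA and 0.706% and 0.732% with SET siRNA. The 3 WT SET siRNA libraries lay below all the others and the 4 KO libraries above all the WT libraries, while the KO libraries of both siRNAs overlapped. These are bulk samples, in which fewer cells in G2 or mitosis and less of these RNAs per cell cannot be told apart.

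**Figure D1:**
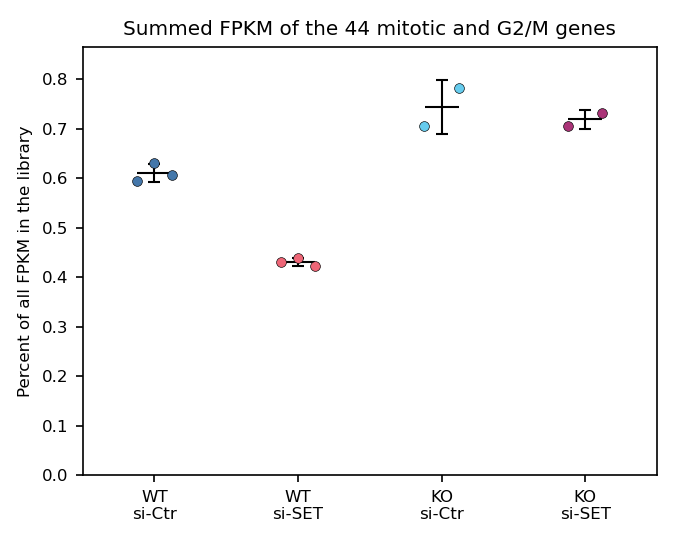
Summed FPKM of the 44 members as a percentage of all FPKM in each library (y axis), by group (x axis); points are libraries, the horizontal line is the group mean and the bars are 1 SD. The WT SET siRNA libraries sit at 0.423% to 0.439%, below the WT control libraries at 0.594% to 0.630%, and the KO libraries at 0.706% to 0.782%.

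The first comparison asked what SET siRNA did to the members in WT-labelled cells. With SET siRNA 41 of the 44 were lower and none was higher, with the libraries of the 2 groups not overlapping for those same 41. With limma and an adjusted p below 0.05, 54.8% of all genes tested were called, 24.0% lower and 30.8% higher, and 28.6% of all genes had SET siRNA libraries that lay wholly below the controls. No member was higher at an unadjusted p below 0.05 either, against 5006 of all 14813 genes tested. The median member differed by -0.48 on the log2(FPKM + 1) scale, against 0.04 over all genes tested. In unlogged FPKM the median member kept 71.3% of its control level, and the members ran from 46.3% for PLK1 to 108% for HMMR. Only PLK1 and CDC20 fell 2-fold or more on the log2(FPKM + 1) scale.

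All 7 kinases and CDC25 phosphatases fell. PLK1, the Polo-like kinase needed for spindle assembly and mitotic entry, lies at chr16:23690201-23701688 in the files' coordinates, whose genome build is not given in the sources used here. Its FPKM was 84.4, 80.8 and 79.9 in the WT control libraries, 38.0, 35.6 and 39.8 in the WT SET siRNA libraries, 89.3 and 76.9 in the KO control libraries and 79.9 and 76.8 in the KO SET siRNA libraries. The 3 WT SET siRNA values were the lowest of the 10 and stood apart from the rest. In WT-labelled cells PLK1 fell by 1.09 on the log2(FPKM + 1) scale, the scale of all log2 values here (SE 0.062, adjusted p = 1.66e-06), a level 53.7% below control. For AURKA, the Aurora kinase of the centrosome and spindle poles, the WT control libraries read 85.7, 85.7 and 87.4 FPKM, the WT SET siRNA libraries 50.7, 51.5 and 51.9, the KO control libraries 103 and 110.1 and the KO SET siRNA libraries 97.8 and 104. AURKA was again lowest in the WT SET siRNA libraries, with no overlap, and fell by 0.74 (SE 0.040, adjusted p = 1.18e-06). NEK2, a centrosome kinase, fell by 0.79, the largest fall in this class after PLK1.

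AURKB, the Aurora kinase of the chromosomal passenger complex, behaved differently in the KO-labelled line. It was at 58.4, 55.2 and 55.1 FPKM in the WT control libraries, 42.4, 44.3 and 42.9 with SET siRNA, 109 and 105 in the KO control libraries and 132 and 133 in the KO SET siRNA libraries. The 4 groups did not overlap and ran in the order WT SET siRNA, WT control, KO control, KO SET siRNA. AURKB fell by 0.37 in WT-labelled cells (SE 0.039, adjusted p = 5.74e-05) and rose by 0.30 in KO-labelled cells (SE 0.048, adjusted p = 0.00129), and the responses differed by -0.67 (adjusted p = 3.44e-04). CDK1, the kinase that drives mitotic entry, had a small fall, from 112, 127 and 114 FPKM to 99.3, 99.2 and 99.0 FPKM in WT-labelled cells, while the KO-labelled line held 141 and 175 with control siRNA and 147 and 142 with SET siRNA. The WT groups of CDK1 did not overlap, and the log2 change of -0.24 had an adjusted p of 0.0227. The call was lost, at an adjusted p between 0.0546 and 0.0839, with quantile normalization, without WT control library 2 and without any single 1 of the 3 WT SET siRNA libraries.

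**Figure D2:**
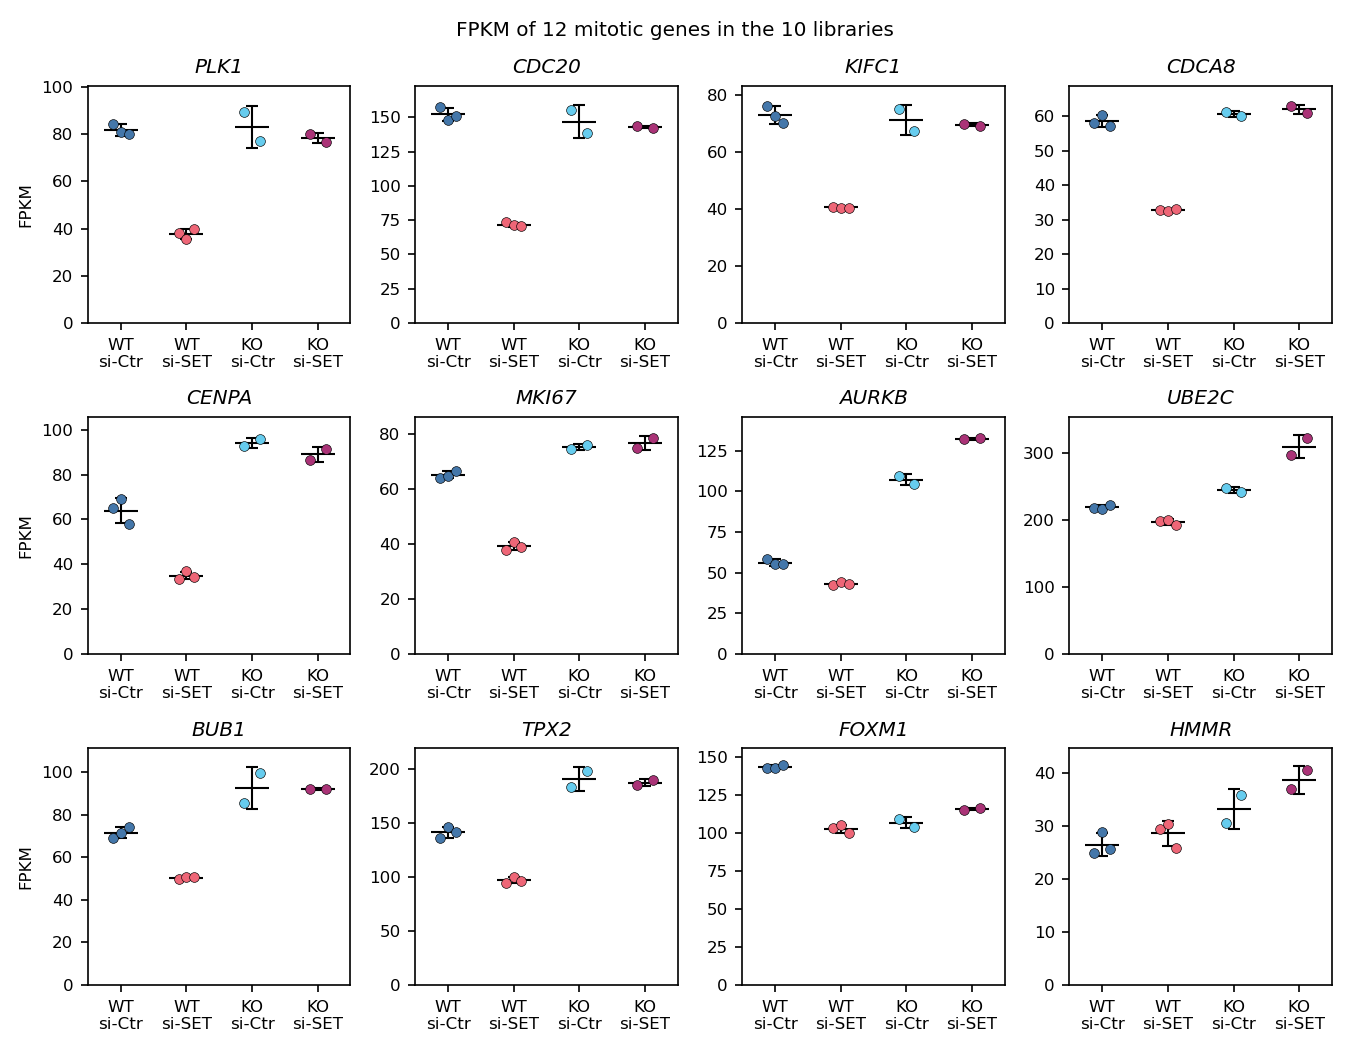
FPKM (y axis, from 0) of single members in each library by group (x axis), 1 panel for each of 12 genes; points are libraries, horizontal lines group means and bars 1 SD. The WT SET siRNA libraries are lowest for PLK1 (35.6 to 39.8 FPKM) and CDC20 (70.5 to 73.3 FPKM), while AURKB reaches 132 to 133 FPKM in the KO SET siRNA libraries and HMMR overlaps between the WT groups.

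The 8 kinesins, microtubule motors that shape the spindle and the midzone, all fell in WT-labelled cells. KIF20A, a motor of the midzone and cytokinesis, had 49.0, 48.6 and 48.8 FPKM in the WT control libraries, 25.5, 25.4 and 25.0 with SET siRNA, 59.1 and 60.5 in the KO control libraries and 52.1 and 52.0 in the KO SET siRNA libraries. Its WT SET siRNA libraries were the lowest of all, and the KO SET siRNA pair was also below the KO control pair. KIF20A fell by 0.92 in WT-labelled cells (SE 0.032, adjusted p = 1.61e-07). The values for KIFC1, a minus-end motor that bundles spindle microtubules, were 76.2, 72.4 and 70.1 FPKM in the WT control libraries, 40.7, 40.5 and 40.3 with SET siRNA, 75.0 and 67.5 in the KO control libraries and 69.8 and 69.2 in the KO SET siRNA libraries, and it fell by 0.83 (SE 0.048). For KIFC1 the WT SET siRNA libraries were apart from the other 7, which overlapped. KIF23, a centralspindlin subunit, went from 81.2, 84.2 and 88.2 to 53.4, 52.3 and 49.8 FPKM in WT-labelled cells and from 95.2 and 110.3 to 84.0 and 91.1 FPKM in KO-labelled cells. It fell by 0.69 in WT-labelled cells, again with the WT SET siRNA libraries lowest. The smallest fall among the kinesins was -0.33 for KIF4A, a chromosome-bound motor.

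Of the 6 kinetochore and centromere genes, 5 fell. CENPA, the histone H3 variant that marks centromeres, stood at 65.0, 69.0 and 57.8 FPKM in the WT control libraries, 33.6, 36.9 and 34.4 with SET siRNA, 92.6 and 95.8 in the KO control libraries and 86.6 and 91.2 in the KO SET siRNA libraries. The WT SET siRNA libraries were the lowest and the KO libraries the highest, and CENPA fell by 0.85 in WT-labelled cells (SE 0.065, adjusted p = 8.72e-06). CENPF, a large outer kinetochore protein, went from 52.7, 62.8 and 63.0 to 38.2, 40.2 and 37.8 FPKM in WT-labelled cells and read 77.3 and 92.4 with control siRNA and 69.7 and 73.3 with SET siRNA in KO-labelled cells. Each pair of siRNA groups of CENPF was apart, and the WT change was -0.60 (SE 0.083, adjusted p = 2.63e-04). The NDC80 complex subunits NDC80, NUF2 and SPC25, which bind microtubules at the kinetochore, changed by -0.42, -0.41 and -0.27. CENPE, a kinetochore motor, did not pass the test, with a change of -0.17 (95% confidence interval -0.46 to 0.13) and overlapping libraries, at 12.9, 17.3 and 17.7 FPKM with control siRNA and 13.8, 14.5 and 13.6 with SET siRNA.

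The 3 partners of AURKB in the chromosomal passenger complex fell together in WT-labelled cells. CDCA8, called borealin as a protein, was at 58.2, 60.5 and 57.2 FPKM with control siRNA and 32.9, 32.5 and 33.0 with SET siRNA, and in the KO-labelled line at 61.3 and 60.0 with control siRNA and 63.0 and 61.0 with SET siRNA. The WT SET siRNA libraries were apart from the other 7, which lay between 57.2 and 63.0 FPKM, and CDCA8 fell by 0.82 (SE 0.036, adjusted p = 5.20e-07). BIRC5, or survivin, had 103, 108 and 96.0 FPKM in the WT control libraries, 76.0, 78.3 and 77.3 with SET siRNA, 106 and 105 in the KO control libraries and 116 and 120.5 in the KO SET siRNA libraries. BIRC5 was lowest in the WT SET siRNA libraries and highest in the KO SET siRNA libraries, and the WT change was -0.40 (SE 0.046). INCENP, the scaffold of the complex, fell by 0.42.

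All 4 spindle checkpoint genes fell, by similar amounts, from -0.63 for MAD2L1 to -0.49 for TTK. BUB1, a checkpoint kinase at kinetochores, was at 69.1, 71.7 and 74.2 FPKM in the WT control libraries, 49.7, 50.6 and 50.8 with SET siRNA, 85.7 and 99.6 in the KO control libraries and 91.9 and 92.3 in the KO SET siRNA libraries. BUB1 had its WT SET siRNA libraries apart from the rest and overlapping KO groups, with a WT change of -0.50 (SE 0.055, adjusted p = 7.03e-05). TTK, the kinase that starts the checkpoint signal, went from 19.0, 20.4 and 20.3 to 14.2, 14.3 and 13.2 FPKM in WT-labelled cells and read 28.8 and 34.8 with control siRNA and 27.4 and 26.9 with SET siRNA in KO-labelled cells, with the WT SET siRNA libraries lowest and the 2 KO groups apart. BUB1B, which encodes the CDC20 inhibitor BUBR1, changed by -0.54.

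Of the 4 genes of the anaphase-promoting complex and chromatid separation, 3 fell, by very different amounts. CDC20, the activator of the complex, stood at 158, 148 and 151 FPKM in the WT control libraries, 73.3, 71.6 and 70.5 with SET siRNA, 155 and 139 in the KO control libraries and 144 and 142 in the KO SET siRNA libraries. Those with SET siRNA in WT-labelled cells were far below the other 7, which overlapped. CDC20 fell by 1.07 (SE 0.048, adjusted p = 5.20e-07), a level 52.9% below control, while its KO change was -0.04 (95% confidence interval -0.17 to 0.10, adjusted p = 0.657). UBE2C went only from 218, 217 and 222 FPKM to 198, 199.6 and 192 FPKM in WT-labelled cells, and from 248 and 241 FPKM to 297 and 322 FPKM in KO-labelled cells. The 4 groups of UBE2C did not overlap, and the WT change of -0.15 (SE 0.040, adjusted p = 0.00991) was the smallest of the 41 falls. ESPL1, the protease separase, fell by 0.46. PTTG1, its inhibitor securin, overlapped between the WT groups, at 164, 175 and 183 FPKM with control siRNA and 157, 172 and 181 with SET siRNA, with a change of -0.03 (95% confidence interval -0.18 to 0.12).

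Among the 9 genes of spindle assembly and cytokinesis, 8 fell and HMMR did not. TPX2, which activates AURKA on the spindle, was at 136, 146 and 142 FPKM in the WT control libraries, 94.7, 100.3 and 96.2 with SET siRNA, 183 and 198 in the KO control libraries and 185 and 189 in the KO SET siRNA libraries. TPX2 was lowest in the WT SET siRNA libraries, which were apart from the rest, with a change of -0.54 (SE 0.046, adjusted p = 1.64e-05). DLGAP5, a microtubule-binding protein of the spindle, changed by -0.58, the largest fall of this class, and ECT2, the exchange factor that starts the cleavage furrow, by -0.31, the smallest. HMMR, a spindle-associated hyaluronan receptor, read 24.9, 28.9 and 25.8 FPKM in the WT control libraries and 29.5, 30.5 and 26.0 FPKM with SET siRNA, and in the KO-labelled line 30.6 and 35.9 with control siRNA and 37.0 and 40.6 with SET siRNA. Its WT groups overlapped, and it was the only member with a WT change above 0, at 0.11 (95% confidence interval -0.09 to 0.30, adjusted p = 0.313).

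The remaining 3 members all fell in WT-labelled cells. MKI67, the Ki-67 proliferation marker that coats mitotic chromosomes, was at 64.2, 64.8 and 66.7 FPKM with control siRNA and 37.8, 40.8 and 39.1 with SET siRNA, and in the KO-labelled line at 74.6 and 76.1 with control siRNA and 75.0 and 78.5 with SET siRNA. MKI67 had its WT SET siRNA libraries apart from the other 7 and fell by 0.72 (SE 0.040, adjusted p = 1.55e-06). TOP2A, the topoisomerase that untangles sister chromatids, went from 158, 171 and 161 to 122, 125 and 115 FPKM in WT-labelled cells and read 199 and 233 with control siRNA and 182 and 186 with SET siRNA in KO-labelled cells. TOP2A was lowest in the WT SET siRNA libraries and its KO groups were apart, with a WT change of -0.43 (SE 0.062). FOXM1, the transcription factor that activates many genes of this list, had 142, 143 and 145 FPKM in the WT control libraries, 103, 105 and 99.9 with SET siRNA, 109 and 104 in the KO control libraries and 115 and 116 in the KO SET siRNA libraries. FOXM1 stood apart from the others in that its WT control libraries were the highest of the 10, and its WT SET siRNA and KO control libraries overlapped.

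The promoters of several members were read to show what the genes share beside their function. RefSeq promoter windows of build GRCh38.p14, whose coordinates are not those of the files, from 250 bases before to 50 after the start, were matched to 38 of the 44 members. FOXM1, TTK, TPX2, UBE2C, AURKA and BIRC5 had no entry in the table used here, and for the 6 members with more than 1 window the first was taken. The letters of the cell cycle genes homology region (CHR), TTTGAA or TTCGAA, and of the CCAAT box, CCAAT, were searched on both strands. The stretches below run from 150 bases before to 20 after the start, 5′ to 3′ on the gene's strand, with letters of a CHR or CCAAT match on either strand in capitals. The first 5 belong to members with the largest difference in response between the lines in their class. The last 2 belong to members that were not called in WT-labelled cells. They lie at chr16:23678739-23678908 (plus strand), chr1:43358831-43359000 (plus), chr1:37692366-37692535 (plus), chr6:33391673-33391842 (plus), chr2:26785906-26786075 (plus), chr5:163460482-163460651 (plus) and chr4:103198324-103198493 (minus).
PLK1: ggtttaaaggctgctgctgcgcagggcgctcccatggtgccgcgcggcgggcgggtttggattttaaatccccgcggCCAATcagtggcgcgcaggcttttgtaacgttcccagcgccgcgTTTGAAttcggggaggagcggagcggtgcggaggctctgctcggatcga
CDC20: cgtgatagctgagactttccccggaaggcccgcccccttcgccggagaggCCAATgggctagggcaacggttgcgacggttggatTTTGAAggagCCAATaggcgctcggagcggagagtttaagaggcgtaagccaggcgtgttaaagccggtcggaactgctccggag
CDCA8: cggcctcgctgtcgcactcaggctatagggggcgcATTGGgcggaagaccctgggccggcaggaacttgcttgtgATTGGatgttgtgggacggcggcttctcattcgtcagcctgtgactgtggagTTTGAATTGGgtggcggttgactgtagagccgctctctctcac
KIFC1: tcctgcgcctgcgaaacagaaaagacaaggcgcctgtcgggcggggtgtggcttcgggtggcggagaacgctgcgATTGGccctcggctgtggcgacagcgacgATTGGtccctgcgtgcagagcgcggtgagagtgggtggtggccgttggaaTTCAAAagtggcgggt
CENPA: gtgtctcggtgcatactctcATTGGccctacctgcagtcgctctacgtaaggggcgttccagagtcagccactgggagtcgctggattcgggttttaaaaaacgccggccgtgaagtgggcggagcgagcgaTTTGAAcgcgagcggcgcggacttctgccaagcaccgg
HMMR: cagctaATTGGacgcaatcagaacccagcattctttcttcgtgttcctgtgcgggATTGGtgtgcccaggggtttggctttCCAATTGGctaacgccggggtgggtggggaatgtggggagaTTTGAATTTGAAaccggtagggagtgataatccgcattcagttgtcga
CENPE: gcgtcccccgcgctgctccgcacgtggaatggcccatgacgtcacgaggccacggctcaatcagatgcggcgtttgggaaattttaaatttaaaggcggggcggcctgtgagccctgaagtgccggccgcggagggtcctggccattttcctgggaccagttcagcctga

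CHR letters in either form were present in the window of 29 of the 38 matched members (76.3%), against 16.6% of the 27305 promoters of the table, and within 50 bases of the start in 63.2% against 5.05%. CCAAT letters were present in 76.3% of members against 35.7% of all promoters, with 2 or more matches in 47.4% against 11.3%. CHR and CCAAT letters stood in the same window in 65.8% of members and 6.58% of all promoters. At least 1 of the E2F-like letter strings TTCCCGC or TTGGCGC or GGCGGGA was found in 39.5% of members and 20.3% of all promoters. In the stretch of CDCA8 a CHR match and a CCAAT match share letters. In that of HMMR 2 CCAAT matches share letters, while its 2 CHR matches run directly into each other without overlap. HMMR, which did not fall, has 2 CHR and 5 CCAAT matches in its window. CENPE, whose change in WT-labelled cells was not called, has no match of either kind. PTTG1, not called there either, has CCAAT matches but no CHR match. Members that fell in WT-labelled cells lacked CHR letters too. AURKB, NEK2 and KIF20A have CCAAT matches but no CHR match, and CDC25B, CDC25C, KIF2C and CKAP2 have neither. CHR letters were in 75% of the 24 matched members whose response was called different between the lines. They were in 78.6% of the 14 whose response was not. These shares were not tested against each other, and a missing call does not show an equal response. A match of letters describes the sequence and does not show that a protein binds there.

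The second comparison asked what SET siRNA did to the members in KO-labelled cells. There 8 members were called lower and 5 higher, and 31 were not called, against 37.6% of all genes called, 17.9% lower and 19.8% higher. The members' shares were 18.2% lower and 11.4% higher, near or below those of all genes, and the median member differed by -0.06 against 0.02 over all genes tested. Changes ran from -0.29 for CKAP2, a spindle-pole protein, to 0.34 for UBE2C, and no member changed 2-fold. The libraries of the 2 siRNAs did not overlap for 14 members in the lower direction and 8 in the higher, against 31.4% and 36.0% of all genes. These calls rested on few libraries: with KO control library 2 left out, 4 members were called higher and 1 lower, with KO control library 1 left out 5 and 14, with KO SET siRNA library 1 left out 3 and 1, and with KO SET siRNA library 2 left out 4 and 3. Fitted on the 4 KO libraries alone, 3 members were higher and none lower by limma, with 6 and 4 at an unadjusted p below 0.05. In that fit 3202 of all genes were called, and how many passed the unadjusted level was not counted.

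The 5 members that rose in KO-labelled cells included AURKB and both BIRC5 and INCENP of its complex. INCENP rose by 0.28 (SE 0.062, adjusted p = 0.00668) and BIRC5 by 0.17 (SE 0.057, adjusted p = 0.0427), while CDCA8, the remaining partner, was at 0.03 (95% confidence interval -0.07 to 0.13). UBE2C rose by 0.34 (SE 0.050, adjusted p = 8.84e-04) and KIF2C, a kinesin that takes microtubules apart, by 0.33 (SE 0.045, adjusted p = 5.68e-04). KIF2C went from 126 and 125 to 159.5 and 158 FPKM in KO-labelled cells and from 111, 113 and 112 to 83.0, 86.3 and 89.5 FPKM in WT-labelled cells, with no overlap between siRNAs in either line. UBE2C, KIF2C and AURKB kept their call in each alternative tried.

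The 8 members that fell in KO-labelled cells were CKAP2, DLGAP5, ANLN, TOP2A, KIF23, KIF20A, NEK2 and CDC25C. CKAP2 went from 48.0 and 55.8 to 41.0 and 43.3 FPKM, a fall of 0.29 on the log2 scale like that of DLGAP5, and ANLN, the actin-binding scaffold of the cleavage furrow, changed by -0.27. Adjusted p-values of the 8 ran from 0.00433 for KIF20A to 0.0499 for CDC25C, and each lost its call under at least 1 alternative, CDC25C in 15 of them and KIF20A in 1. Among the members that rose, BIRC5 lost its call in 14 and INCENP in 2. All 6 kinetochore and centromere genes and all 4 checkpoint genes were left without a call, with changes from -0.25 for NUF2 to -0.0039 for BUB1.

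**Figure D3:**
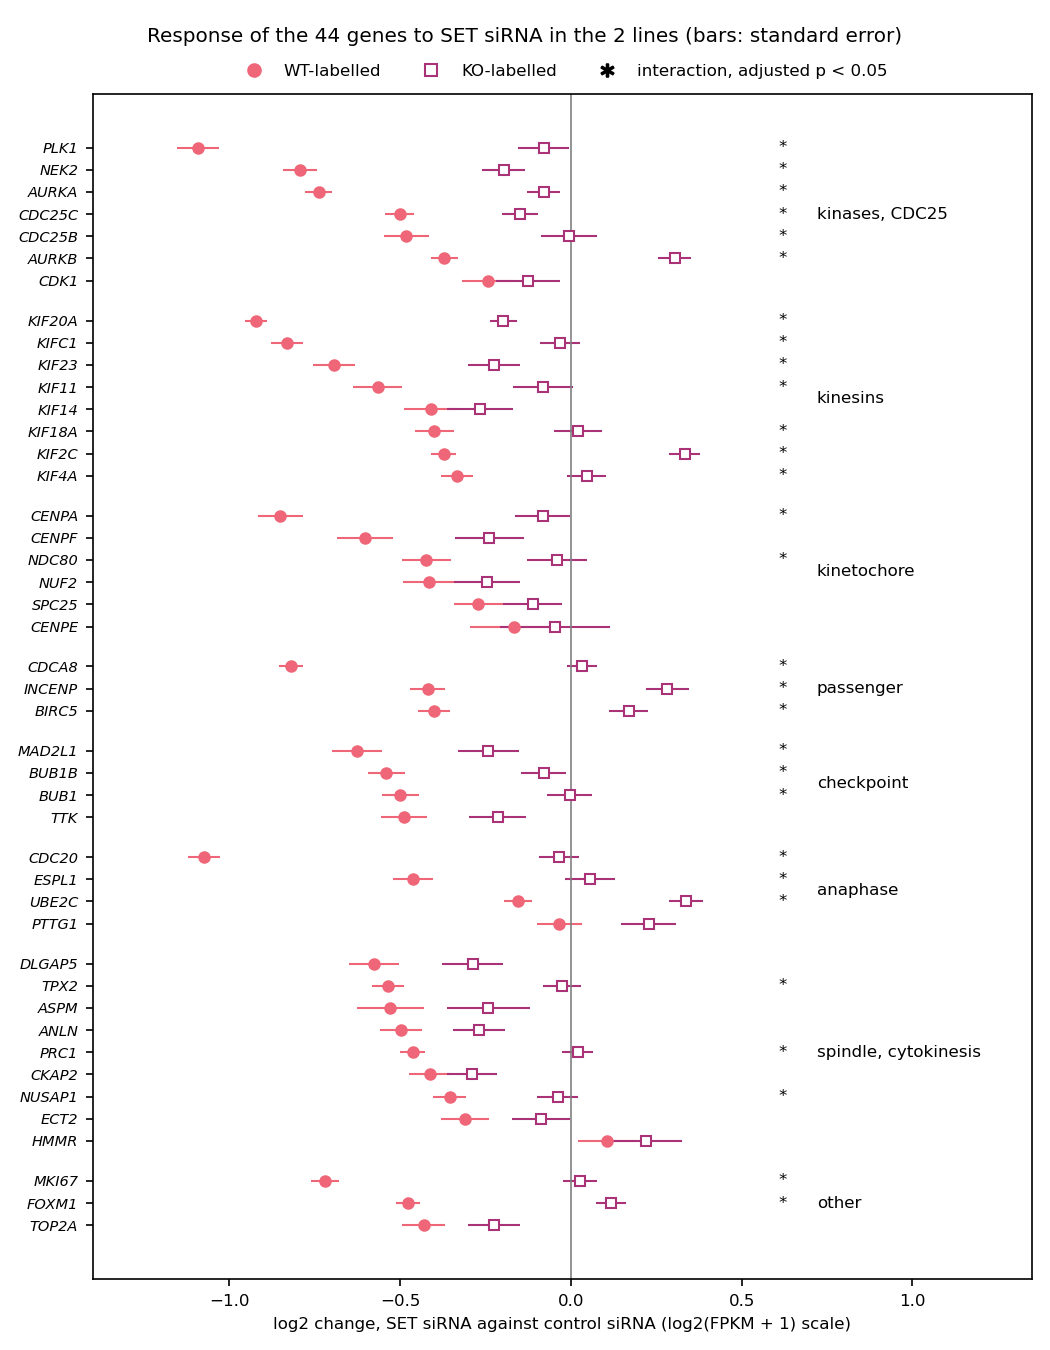
Change with SET siRNA against control siRNA (x axis, log2(FPKM + 1) scale) for each of the 44 members (rows, by class), in WT-labelled cells (filled circles) and KO-labelled cells (open squares); bars are the standard error and stars mark the 29 members with a called difference in response. The WT changes run from -1.09 to 0.11 and the KO changes from -0.29 to 0.34, and in every row the WT circle lies to the left of the KO square.

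The third comparison set the members' responses in the lines against each other, by the interaction term of the same fit. The WT response was lower than the KO response for all 44 members, from -1.04 for CDC20 to -0.11 for HMMR, and the difference was called for 29. Over all genes tested, 19.1% were called, 8.6% with the WT response lower and 10.5% with it higher. No member was called in the higher direction by limma, also at an unadjusted p below 0.05, and 34 had a lower WT response at that unadjusted level. Of all 14813 genes tested, 2394 had a lower and 2984 a higher WT response at the unadjusted level. The median member's difference was -0.46 against 0.03 over all genes. Without KO control library 1, the difference turned to between 0.02 and 0.10 in CDK1, CENPE and KIF14, 3 members with no call. The 3 comparisons share libraries, so the difference is not independent of either response. The number of members called ran from 22 without KO SET siRNA library 2 to 35 without KO control library 2, and the calls of NDC80 and MAD2L1 were lost in 12 and 11 alternatives.

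The largest differences were in CDC20 (-1.04, SE 0.075, adjusted p = 1.30e-04) and PLK1 (-1.01, SE 0.098, adjusted p = 4.35e-04), the 2 members past a 2-fold difference. CDCA8 at -0.85, KIFC1 at -0.80 and CENPA at -0.77 followed, and MKI67 at -0.75. For these 6 genes the KO change lay between -0.08 and 0.03 and was not called. By class, the difference was called for 6 of 7 kinases and CDC25 phosphatases, all but CDK1 (-0.12, adjusted p = 0.505), and for 7 of 8 kinesins, all but KIF14 (-0.14, adjusted p = 0.431). It was called for the 3 passenger partners, led by CDCA8 and INCENP (-0.70), for 3 of 4 checkpoint genes, led by BUB1 (-0.50) and without TTK (-0.27, adjusted p = 0.10), and for 3 of 4 genes of chromatid separation, without PTTG1 (-0.26, adjusted p = 0.107). Only 2 of 6 kinetochore genes were called, CENPA and NDC80 (-0.38), and 3 of 9 genes of spindle assembly and cytokinesis, TPX2 (-0.51), PRC1 (-0.48) and NUSAP1 (-0.32). Of the last 3 members MKI67 and FOXM1 (-0.59) were called and TOP2A (-0.20, adjusted p = 0.165) was not. Whether the classes differ from one another was not tested.

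Sorted by their calls, 20 members fell in WT-labelled cells, had no call in KO-labelled cells and differed between the lines, PLK1, CDC20 and AURKA among them. A further 5 fell in WT-labelled and rose in KO-labelled cells (AURKB, KIF2C, BIRC5, INCENP and UBE2C), and 4 fell in both lines but further in WT-labelled cells (CDC25C, NEK2, KIF20A and KIF23). In DLGAP5, CKAP2, ANLN and TOP2A a fall was called in both lines and no difference between them. Another 8 members fell in WT-labelled cells with neither a KO call nor a called difference (CDK1, KIF14, CENPF, NUF2, SPC25, TTK, ASPM and ECT2), and CENPE, PTTG1 and HMMR had no call in any of these 3 comparisons. How many of all genes follow each pattern was not counted. The sorting rests in part on KO calls, whose shares among members were near or below those of all genes. The KO call was lost in 15 alternatives for CDC25C, 14 for BIRC5 and 12 for KIF23, while UBE2C, KIF2C and AURKB kept theirs throughout. With the KO libraries fitted alone, 3 members were called higher and none lower. Every WT SET siRNA library lay below each of the other 7 libraries for 40 members (90.9%), against 13.9% of all genes tested, the exceptions being CENPE, PTTG1, HMMR and FOXM1.

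The 2 lines also differed with control siRNA. The KO-labelled line was higher for 34 members and lower for FOXM1, against 47.9% of all genes called, 25.7% higher and 22.2% lower, and 9 members were not called. The median member was 0.31 higher in KO-labelled cells on the log2 scale, against 0.02 over all genes tested, and in unlogged FPKM the ratio of KO to WT ran from 0.744 for FOXM1 to 1.94 for KIF11. KIF11, the motor that pushes the spindle poles apart, was at 29.1, 31.7 and 31.9 FPKM in the WT control libraries and at 54.2 and 65.5 in the KO control libraries, and with SET siRNA at 20.8, 21.3 and 19.5 in WT-labelled and 55.0 and 57.6 in KO-labelled cells. The KO libraries of KIF11 were above all WT libraries, and its difference with control siRNA was 0.93 (SE 0.080, adjusted p = 2.94e-05). AURKB was next at 0.92 (SE 0.044), then TTK at 0.64, CENPE at 0.60 and KIF18A, a motor that shortens kinetochore microtubules, at 0.58.

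By class, 9 of 9 genes of spindle assembly and cytokinesis were higher in the KO-labelled line with control siRNA, led by ASPM (0.53) and TPX2 (0.43), and 4 of 4 checkpoint genes, led by TTK and by BUB1 and MAD2L1 (both 0.36). Among the kinases, 6 of 7 were higher and PLK1 (0.02, 95% confidence interval -0.14 to 0.18) was not called, and among the kinesins 7 of 8 were higher and KIFC1 (-0.03) was not called. CENPA (0.56) and the other kinetochore genes were higher except NDC80 (0.17, adjusted p = 0.110). TOP2A (0.40) and MKI67 (0.21) were higher too. The 3 passenger partners were not called, with differences from 0.04 to 0.05, in contrast to AURKB itself, and in the separation class UBE2C alone was called, at 0.16. FOXM1 was lower in KO-labelled cells, with a difference of -0.42 (SE 0.040, adjusted p = 5.08e-05). Among the higher members, ANLN, BUB1B, CDC25B, CENPE, HMMR, KIF14, KIF23 and UBE2C each lost the call under at least 1 alternative. CDC25B lost it under 14. The 2 KO control libraries had a median absolute log2 difference over all genes tested of 0.142, against 0.0701 to 0.0940 in the other pairs of 1 group, and library 2 was above library 1 for 30 of the 44 members. Without KO control library 2, 28 members were called higher, and FOXM1 and CDC20 were both called lower without KO control library 1.

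For several members, neighbouring genes differed between the lines in the same direction. The 20 tested genes nearest to AURKB, on chromosome 17 at chr17:8108049-8113883 in the files' coordinates, had a median difference of 0.70 with control siRNA, and 18 of the 20 were higher in KO-labelled cells. Around KIF11, on chromosome 10 at chr10:94352825-94415152, the median of the 20 neighbours was 0.55 and 17 were higher. The neighbours of FOXM1, on chromosome 12 at chr12:2966849-2986303, had a median of -0.57, and none of the 20 was higher in KO-labelled cells. Other members went against their neighbours. NUSAP1 was 0.25 higher in KO-labelled cells while its neighbours had a median of -0.29, and BUB1B was 0.19 higher with neighbours at -0.27. Over the 44 members the neighbours' median ran from -0.57 to 0.70 with a middle value of 0.05. The part of such regional differences in these members' levels was not tested. In the response of WT-labelled cells to SET siRNA, the neighbours' medians ran only from -0.21 around TPX2 to 0.21 around ECT2.

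**Figure D4:**
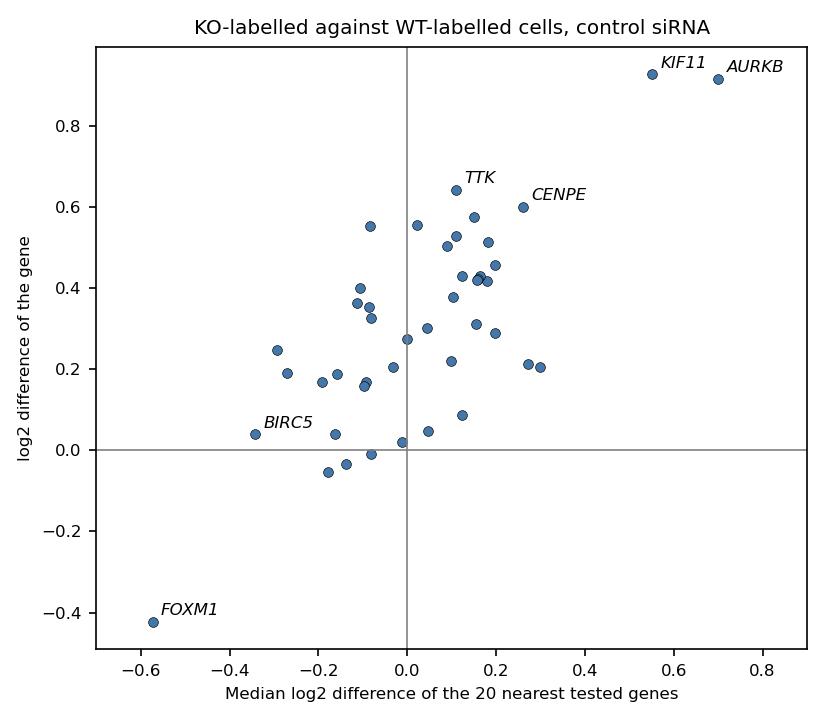
Difference between KO-labelled and WT-labelled cells with control siRNA in each member (y axis, log2(FPKM + 1)) against the median difference of its 20 nearest tested genes (x axis, same scale); each point is a member. AURKB (neighbours 0.70) and KIF11 (0.55) lie at the upper right and FOXM1 (neighbours -0.57) at the lower left, and 40 of the 44 members lie above 0.

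With SET siRNA, the difference between the lines was wider and took in the whole list. All 44 members were higher in KO-labelled cells, against 48.4% of all genes called, 23.6% higher and 24.8% lower, and every KO SET siRNA library lay above every WT SET siRNA library for each of them, which held for 34.7% of all genes. No member was lower, also at an unadjusted p below 0.05, against 4188 of all 14813 genes tested. The median member was 0.73 higher, against -0.0036 over all genes tested, and in unlogged FPKM 1.69 times as high. The range ran from 0.17 for FOXM1 (adjusted p = 0.00667) to 1.59 for AURKB (SE 0.044, adjusted p = 1.36e-08), which was 3.06 times as high. KIF11 (1.41), CENPA (1.32), PLK1 (1.03) and KIF20A (1.01) were also 2-fold or more higher on the log2(FPKM + 1) scale. PLK1 and CDC20, which did not differ beyond the test with control siRNA, were 2.07 and 1.99 times as high with SET siRNA. Passenger partners that were not called with control siRNA were at 0.61 for BIRC5, 0.74 for INCENP and 0.90 for CDCA8, and TPX2 and MKI67 were at 0.94 and 0.95. FOXM1 and HMMR were the 2 members to lose this call when a library was left out.

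A further 78 genes of G2 and mitosis, beyond the 44, were listed to set beside them, and all were tested. In WT-labelled cells 61 of them fell (78.2%, against 24.0% of all genes tested) and 3 rose (3.85%, against 30.8%), with a median of -0.42. The largest falls were in CCNA2, or cyclin A2 (-1.62), LMNB1, a nuclear lamin (-1.48), OIP5, a loader of CENPA (-1.0), and PSRC1, a spindle protein (-0.95), and the 3 that rose were CDC16 (0.37), a subunit of the anaphase-promoting complex, CENPN (0.22) and MIS12 (0.22), both kinetochore proteins. CCNB1, cyclin B1, the partner of CDK1, was at 198, 214 and 209.6 FPKM in the WT control libraries, 132, 140.0 and 136 with SET siRNA, 238 and 249.7 in the KO control libraries and 225 and 226 in the KO SET siRNA libraries. CCNB1 was lowest in the WT SET siRNA libraries, fell by 0.61 in WT-labelled cells (SE 0.043, adjusted p = 5.42e-06) and had a KO change of -0.11 that was not called. In KO-labelled cells 16 of the 78 fell (20.5%) and 11 rose (14.1%), near the 17.9% and 19.8% of all genes tested, CCNA2 (-1.08), LMNB1 (-0.92), CDC23 (-0.92) and OIP5 (-0.69) having the largest falls. CCNA2, LMNB1 and OIP5 thus fell in both lines, as did CDC23, from a mean of 17.2 to 8.87 FPKM in WT-labelled cells. They were named as the largest falls, while 51 of the 78, like most of the 44 members, had no call in KO-labelled cells.

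The WT response was called lower than the KO response for 47 of the 78 and higher for none by limma, with 55 and 1 at an unadjusted p below 0.05 and a median of -0.35. At the unadjusted level it was lower for 2394 and higher for 2984 of all 14813 genes tested. The 47 are 60.3% of the list, against 8.6% of all genes tested, 10.5% of which had a higher WT response. KIF18B (-0.94), SPC24 (-0.90), CDC25A (-0.83) and PSRC1 (-0.82) had the largest differences. With control siRNA 50 were higher (64.1%, against 25.7% of all genes) and 4 lower (5.13%, against 22.2%) in KO-labelled cells, the largest being KIF20B (0.90), CEP55 (0.80), SMC4 (0.66) and CKS2 (0.63). With SET siRNA 68 were higher (87.2%, against 23.6%), led by CEP55 (1.16), CKS2 (1.04), PSRC1 (1.02) and HJURP (1.02), and 1 was lower (HN1, 1.28%, against 24.8%).

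Genes of the p53 arrest arm, which include CDKN1A, mostly rose in WT-labelled cells. Of 7 tested, 6 rose and 1 (SFN) fell with SET siRNA there, where 30.8% of all genes rose and 24.0% fell. In KO-labelled cells 3 rose (CDKN1A, GADD45A at 0.96 and GDF15 at 1.54), 1 fell (ZMAT3 at -0.53) and 3 were not called, against 19.8% of all genes that rose and 17.9% that fell. All 7 were lower in KO-labelled than in WT-labelled cells under either siRNA, which held for 22.2% of all genes with control siRNA and 24.8% with SET siRNA. CDKN1A went from 163, 169.8 and 153 to 741, 721 and 699 FPKM in the WT-labelled line, a rise of 2.15 on the log2 scale, and from 6.84 and 6.51 to 19.4 and 19.3 FPKM in the KO-labelled line, a rise of 1.41. Every WT library was thus above every KO library for CDKN1A, and SET siRNA libraries were above controls in both lines.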

How the data were processed

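RNA of 10 libraries (4 groups, 3, 3, 2 and 2 libraries) was measured by sequencing. The deposited values are FPKM per gene with a confidence interval and a status, computed by the authors. bcl2fastq 1.8.4, TopHat2 2.0.4 and Cufflinks 2.0.2 were named per the submitters' processing notes, and the genome build, like the annotation, is not given in the sources used here. FPKM keeps no read depth, so precision was read from the authors' intervals, whose median half-width over members was 3.18% to 4.97% of FPKM per library. A symbol was repeated in 45 entries, none of a listed gene. The status was failed for 3 to 12 genes per library and low data for 78. Locus starts were raised by 1 to count from 1.

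Genes at 1 FPKM or more in at least 2 libraries were kept, which left out 10780. log2(FPKM + 1) of all 10 libraries was fitted with limma 3.58.1 (R 4.3.3) with 4 group means and a mean-dependent prior variance, for 5 contrasts. A fold change on this scale understates the change of low genes. P-values were adjusted by Benjamini-Hochberg over the 14813 genes, and a gene was called at an adjusted p below 0.05. The script was tested on simulated data. Summaries used Python 3.11.15, pandas 2.3.3, numpy 2.4.6, scipy 1.17.1 and matplotlib 3.10.9.

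The members and lists were chosen with earlier results of these data known. Named with values in every library were 16 members and cyclin B1, plus the member of each class with the largest difference in response. Also named were up to 2 called members per class and comparison, members departing from most of their class, and up to 4 of the other G2/M genes per comparison. Replicate numbers did not pair the libraries: deviations from the group means correlated at -0.0833 to 0.229 over 13 same-numbered pairs. Alternatives were a pseudocount of 0.1, no filter, a mean of at least 5 FPKM, quantile normalization, scaling by median of ratios, fits limited to the libraries compared, no variance trend, a replicate block, array weights and leaving out each library. One check of the labels is not reported here.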

Additional observations from a re-analysis of the deposited data

Results flagged for a closer look

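In 29 of the 44 members the WT-labelled and the KO-labelled line responded differently to SET siRNA by the interaction test of limma, at an adjusted p below 0.05. Values are the WT response minus the KO response on the log2(FPKM + 1) scale, and a negative value means that the WT-labelled line went lower. Among kinases and CDC25 phosphatases these were PLK1 (-1.01), AURKB (-0.67), AURKA (-0.66), NEK2 (-0.60), CDC25B (-0.48) and CDC25C (-0.35). The kinesins were KIFC1 (-0.80), KIF20A (-0.72), KIF2C (-0.71), KIF11 (-0.49), KIF23 (-0.47), KIF18A (-0.42) and KIF4A (-0.38). The kinetochore genes were CENPA (-0.77) and NDC80 (-0.38). The passenger partners of AURKB were CDCA8 (-0.85), INCENP (-0.70) and BIRC5 (-0.57), and the checkpoint genes BUB1 (-0.50), BUB1B (-0.46) and MAD2L1 (-0.38). In the separation class the values were CDC20 (-1.04), ESPL1 (-0.52) and UBE2C (-0.49). Spindle and cytokinesis genes were TPX2 (-0.51), PRC1 (-0.48) and NUSAP1 (-0.32), and the last were MKI67 (-0.75) and FOXM1 (-0.59). With 1 library left out, the number called ran from 22 to 35, and 7 of the 29 lost their call in at least 1 such fit, namely CDC25B, KIF11, KIF18A, KIF23, MAD2L1, NDC80 and NUSAP1. No outlier test was run on single values, since the groups hold 3 or 2 libraries.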

How the results depend on the processing

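Every called value of a member kept its direction under the alternatives tried, with limma throughout. The fall of members in WT-labelled cells (41 called) and their higher level in KO-labelled cells with SET siRNA (44) changed least, with 40 to 41 and 42 to 44 called when 1 library was left out. Leaving out a library gave 3 to 5 members higher and 1 to 14 lower in the KO response, 22 to 35 with a lower WT than KO response, and 28 to 33 higher and 1 to 2 lower in KO-labelled cells with control siRNA. Over all genes, the calls ran from 6989 to 8680 for the WT response, 3463 to 5832 for the KO response, 1143 without KO SET siRNA library 1 to 4589 without KO control library 1 for the difference in response, 4800 to 7554 between lines with control siRNA and 5175 to 7699 with SET siRNA. A KO group left with 1 library takes its spread from the other groups, as an assumption. In the KO response, members called lower numbered 5 with no filter, 5 with no variance trend and 4 with array weights. Fitted on the KO libraries alone, 0 members were lower (4 at an unadjusted p below 0.05), 3 were higher, and 3202 genes were called against 5571. The difference in response needs all libraries and was not refitted on fewer groups. The replicate block, which the numbers do not justify as a pairing, gave 8472 genes and 41 members lower in the WT response, 6027 genes with 7 members higher and 11 lower in the KO response, 3400 genes and 31 members for the difference, 7189 genes with 33 members higher and 1 lower between lines with control siRNA, and 7233 genes and 44 members with SET siRNA. The call of CDC25B between the lines with control siRNA was lost in 14 alternatives, the block fit among them.

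Uncalled values changed direction in some fits, and the cause was not tested. Leaving out 1 library at a time, the KO response ran over 0 in BUB1 (-0.11 to 0.10), BUB1B (-0.16 to 0.0046), CDC20 (-0.12 to 0.045), CDC25B (-0.12 to 0.11), CDK1 (-0.28 to 0.029), CENPE (-0.26 to 0.17), ECT2 (-0.21 to 0.037), ESPL1 (-0.038 to 0.15), KIF11 (-0.21 to 0.054), KIF18A (-0.083 to 0.12), KIF4A (-0.015 to 0.11), KIFC1 (-0.11 to 0.042), MKI67 (-0.0060 to 0.059), NDC80 (-0.18 to 0.094), NUSAP1 (-0.11 to 0.036), PLK1 (-0.19 to 0.026), PRC1 (-0.0048 to 0.044), SPC25 (-0.23 to 0.0035) and TPX2 (-0.084 to 0.031). The WT response did so in PTTG1 (-0.080 to 0.022), the difference in response in CDK1 (-0.27 to 0.035), CENPE (-0.34 to 0.10) and KIF14 (-0.31 to 0.018), and the difference between lines with control siRNA in BIRC5 (-0.0053 to 0.081), CDC20 (-0.13 to 0.028), ESPL1 (-0.10 to 0.085), INCENP (-0.016 to 0.10), KIFC1 (-0.11 to 0.041) and PLK1 (-0.086 to 0.13). With median-of-ratios scaling the last value was -0.0049 for PLK1. Depth was not given, and 2 libraries per KO group limit what the KO response can show.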

Other observations

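Regulators that act on the promoters of these genes were listed apart, 13 genes of the DREAM and MuvB complexes and B-MYB. In WT-labelled cells 4 rose and 4 fell with SET siRNA (30.8% each), near the 30.8% and 24.0% of all genes tested, with a median of -0.05. MYBL2, which encodes B-MYB, was at 174, 172 and 173 FPKM in the WT control libraries, 139, 134 and 148 with SET siRNA, 199 and 178 in the KO control libraries and 223 and 225 in the KO SET siRNA libraries. Its siRNA groups did not overlap in either line, and it fell by 0.30 in WT-labelled cells and rose by 0.25 in KO-labelled cells. The response differed between the lines in MYBL2 (-0.55, adjusted p = 0.00297), the pocket protein partner E2F4 (-0.45, adjusted p = 0.00673), its dimer partner TFDP1 (-0.23, adjusted p = 0.0247) and, in the other direction, the pocket protein gene RBL2 (0.41, adjusted p = 0.0201). The pocket protein gene RBL1 fell in both lines, by 0.51 and 0.46, and so did E2F5, by 0.52 and 0.49. E2F5 was a low gene, with group means from 1.30 to 4.35 FPKM, so this scale understates its change. The half-width of the authors' interval for E2F5 was 28.0% of its FPKM, as the median over libraries. In KO-labelled cells with control siRNA 9 of the 13 were higher (69.2%, against 25.7% of all genes) and 2 lower (15.4%, against 22.2%) than in WT-labelled cells. With SET siRNA the counts were again 9 and 2, against 23.6% and 24.8% of all genes.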
